A study of Mus musculus with 13 samples.

Results

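Calcium release and store-operated entry were followed through 10 genes of the mouse submandibular salivary gland, chosen by symbol: the IP3 receptors Itpr1, Itpr2 and Itpr3, the SERCA pumps Atp2a2 and Atp2a3, the STIM sensors Stim1 and Stim2, and the ORAI channels Orai1, Orai2 and Orai3. All 10 were among the 23364 genes listed, and all 10 were among the 14650 genes with at least 1 FPKM (reads per length of transcript and per depth of library) in at least 1 sample. RNA-seq covered 13 samples of whole gland from C57BL/6 mice, for which no treatment or engineered allele is named, asking how expression changes from branching morphogenesis to maturity. Embryonic day E14.5 had 3 samples, while E16.5, E18.5, postnatal day 5 (P5), 4 weeks (4wk) and 12 weeks (12wk) had 2 apiece. Glands of 3 animals were pooled for every E14.5 sample and glands of 2 for the E16.5 and E18.5 samples. Sex was not ascertained in embryos or at P5, while the 4wk and 12wk glands came from males, so that age and sex cannot be told apart in comparisons with the adult. Following the study, the 7 embryonic samples formed an embryo stage, the 2 samples of P5 a neonatal stage, and the 4 samples of 4wk and 12wk an adult stage. The p-values below weigh a difference of means against the spread among samples within groups, pooled over the groups of a fit and moderated across genes. For the pooled embryonic samples this is not the spread between single animals. In p-values between stages this spread includes differences between the ages within a stage. Between time points it is the spread among samples of the same age, pooled over all ages.

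Saliva is released when a nerve transmitter binds a receptor coupled to the Gq protein, phospholipase C then makes inositol trisphosphate (IP3), and IP3 opens IP3 receptors in the endoplasmic reticulum (ER), which let stored calcium into the cytosol. SERCA pumps refill the store, STIM proteins sense how full it is, and STIM proteins of an empty store open ORAI channels of the plasma membrane, which is store-operated calcium entry. In acinar cells, which make the fluid and protein of saliva, the calcium signal starts at the apical pole and opens the chloride and potassium channels that drive fluid secretion.

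The scale of the values matters for these genes. In adult glands the 10 genes with most FPKM of a sample held between 48.1% and 61.1% of all FPKM, against 5.93% to 16.501% in embryonic glands. The median of all tested genes changed by -0.75 (log2) from embryo to adult as deposited and by -0.076 after rescaling each sample to the median gene (median-of-ratios). Both scales are therefore given for fold changes, while marker sums are as deposited. Reads on genes numbered 17345300 to 48314200 except at 4wk, where there were 5817300 and 7957900. E14.5 replicate 1 stood apart from its group, with a summed FPKM of 9 acinar marker genes of 53.8, against 89.8 and 96.6 in the other E14.5 samples. Its duct markers summed to 106, against 249 and 223, its skeletal muscle markers to 620, against 306 and 225, and its neuronal markers to 136, against 88.5 and 81.9. At 4wk the skeletal muscle sum was 46.5 in replicate 1 and 1.52 in replicate 2. In both E16.5 samples the summed FPKM of 9 skeletal muscle markers was between 1153 and 1492, against at most 620 in any other sample. Between the E16.5 samples, replicate 2 exceeded replicate 1 by a median log2 ratio of 0.48 over 2259 genes of 5000 bases or more and was lower by a median of -0.58 over 835 genes under 1000 bases, and the members' transcripts are between 1871 and 11823 bases long.

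From embryo to adult, the pump Atp2a3 and the receptor Itpr2 rose and the channel Orai2 fell. These 3 of 10 genes passed both thresholds (a log2 fold change of FPKM + 1 that reached 1 in size and an adjusted p below 0.1, limma with Benjamini-Hochberg adjustment over all tested genes), 2 of them higher and 1 lower. Of all tested genes 43.6% passed in this comparison, 5.58% higher and 38.0% lower. Itpr1 and Stim1 were also higher in every adult sample than in any embryonic sample but changed by less than the fold threshold. The adult and embryonic samples did not overlap for 4 members that were higher (6.29% of tested genes) and for 1 that was lower (54.1%), and 60.3% of tested genes did not overlap in either direction. After rescaling, 5 members passed as higher (Itpr1, Itpr2, Stim1, Atp2a2 and Atp2a3, where 13.8% of tested genes did) and 0 as lower (14.7%), with 28.4% of tested genes passing in either direction. Orai2 kept its sign but was then short of the fold threshold. The median log2 fold change of the 10 genes was 0.15 as deposited, beside -0.75 for all tested genes, and 1.02 after rescaling, beside -0.076. Because whole glands were sequenced, fewer cells expressing a gene and less RNA per cell cannot be told apart.

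The promoters of the 3 genes that passed from embryo to adult are shown because Itpr2 and Atp2a3 rose while Orai2 fell. The sequences are from RefSeq on build GRCm38.p6, not the mm9 build of the values, and run from 250 bases before to 50 bases after the annotated start. They lie at chr6:146502174-146502473 (minus strand), chr11:72960919-72961218 (plus strand) and chr5:136170607-136170906 (minus strand). Capitals mark motif matches.
Itpr2 promoter: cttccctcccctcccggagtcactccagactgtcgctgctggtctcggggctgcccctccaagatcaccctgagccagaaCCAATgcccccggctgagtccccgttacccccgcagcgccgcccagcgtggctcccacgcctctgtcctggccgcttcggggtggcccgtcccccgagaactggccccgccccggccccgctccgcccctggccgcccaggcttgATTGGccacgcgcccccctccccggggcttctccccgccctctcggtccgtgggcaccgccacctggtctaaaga
Atp2a3 promoter: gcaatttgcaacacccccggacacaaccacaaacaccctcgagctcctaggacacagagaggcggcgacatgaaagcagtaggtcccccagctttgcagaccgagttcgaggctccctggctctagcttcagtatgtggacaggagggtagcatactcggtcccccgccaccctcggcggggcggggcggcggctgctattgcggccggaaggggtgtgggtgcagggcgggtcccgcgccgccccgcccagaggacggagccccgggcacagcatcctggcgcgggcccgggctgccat
Orai2 promoter: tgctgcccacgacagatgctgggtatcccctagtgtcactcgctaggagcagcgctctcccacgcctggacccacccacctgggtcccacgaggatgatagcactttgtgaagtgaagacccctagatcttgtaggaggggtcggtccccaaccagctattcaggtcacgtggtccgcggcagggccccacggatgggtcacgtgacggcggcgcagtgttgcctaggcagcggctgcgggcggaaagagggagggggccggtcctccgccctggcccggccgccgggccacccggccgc
Of the 10 members, 8 had a promoter in the table (not Itpr1 and Atp2a2). Searched on both strands were the E-boxes CATATG and CAGCTG, the box CCAAT, and the ER stress response element (CCAAT and CCACG with 9 bases between them), which contains that box. Among 32851 RefSeq promoters of this length, 3.91%, 16.3%, 37.4% and 0.119% held a match. In Itpr2 the box CCAAT was found at 2 places, with first bases at -170 and -25 from the start, the latter on the opposite strand. Stim2, Orai1 and Orai3 held 1 match to it each, and Orai1 also held CAGCTG, with its first base at -246. In the windows of Atp2a3, Orai2, Itpr3 and Stim1 none of the 4 motifs was found. CG pairs numbered 26 in Itpr2, 25 in Atp2a3 and 24 in Orai2, and 11 in Orai3, the fewest of the 8.

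**Figure D1:**
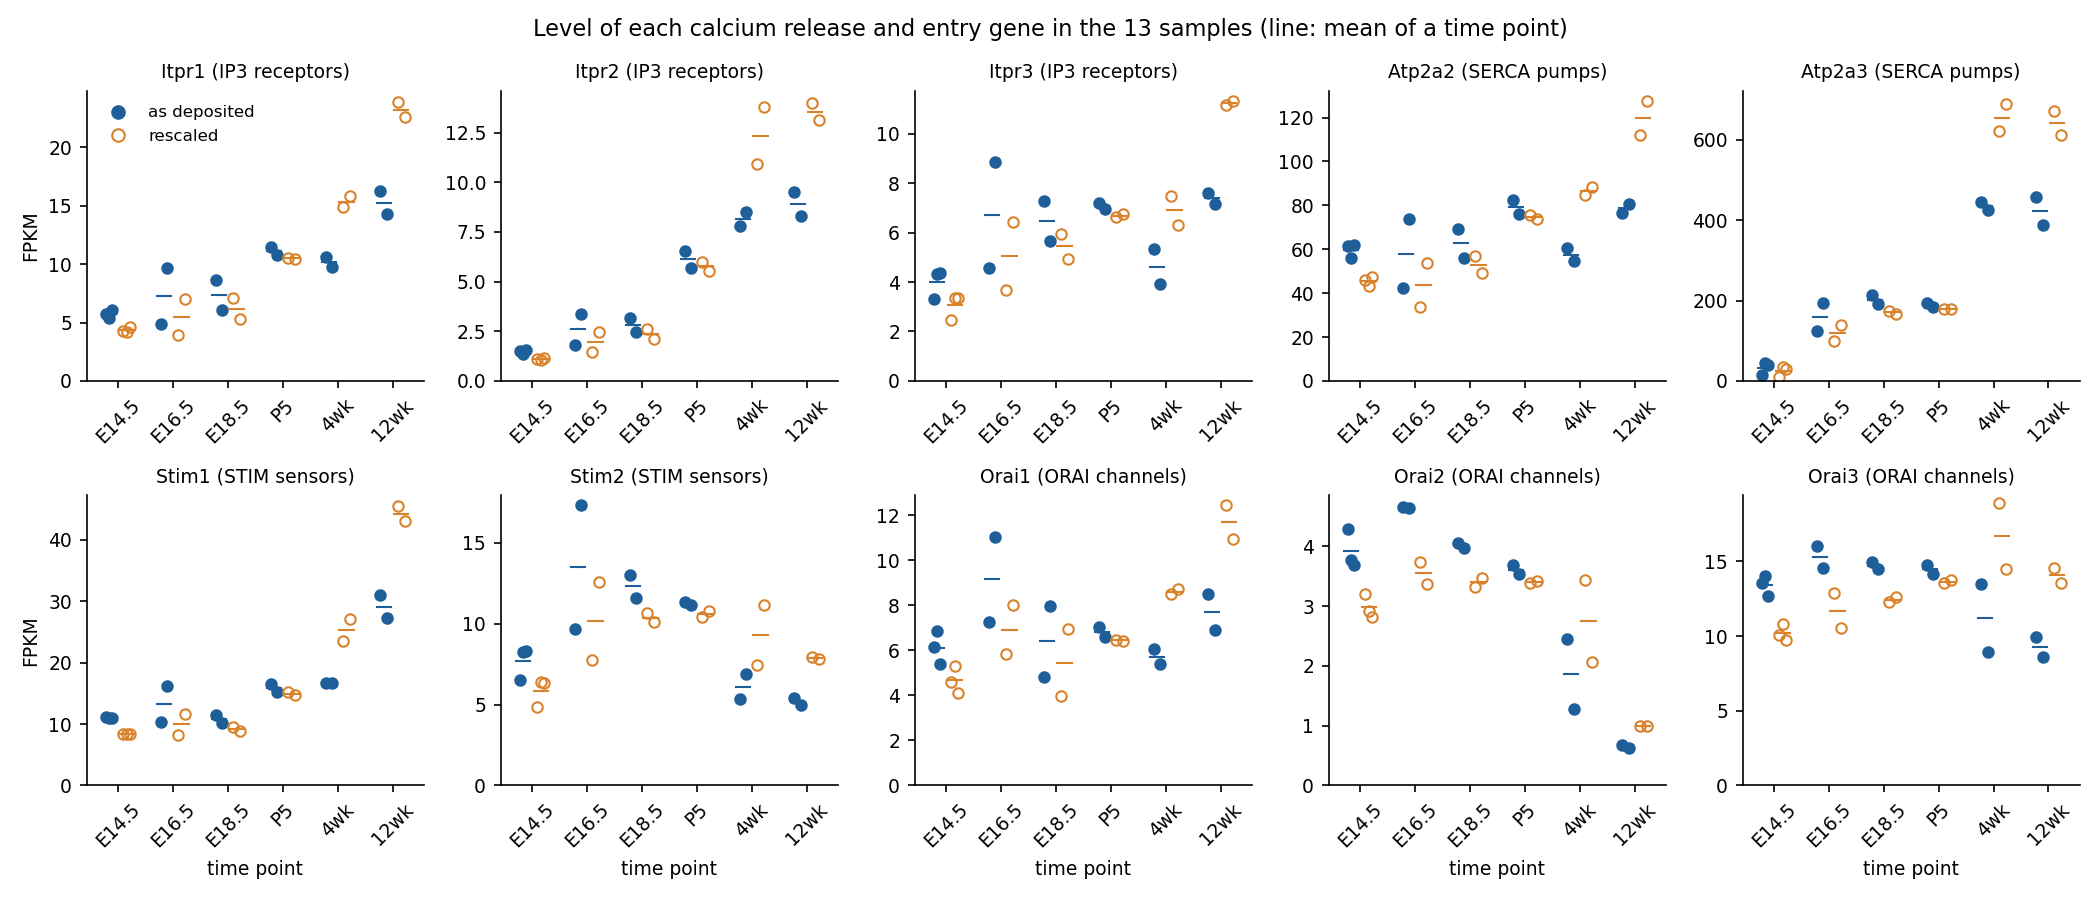
FPKM of each of the 10 genes (y axis, from 0, 1 scale per gene) at the 6 time points (x axis), with filled points for single samples as deposited, open points for the same samples rescaled to the median gene, and short lines for the mean of a time point. Atp2a3 steps up after E14.5 and again after P5, Itpr2 climbs through P5 and 4wk, and Orai2 is lowest at 12wk on both scales.

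Among the IP3 receptors, Itpr2 (mm9 chr6:146056821-146450745, minus strand) encodes a high-affinity receptor that acinar cells of exocrine glands are known to use. Its FPKM was 1.49, 1.36 and 1.54 for E14.5, 1.79 and 3.38 for E16.5, and 3.17 and 2.45 for E18.5. Later samples had 6.54 and 5.71 for P5, 7.79 and 8.503 for 4wk, and 9.53 and 8.30 for 12wk. Every P5 sample lay above every embryonic one, and every adult sample above both. The log2 fold change from embryo to adult was 1.63 ± 0.19 (SE, n = 7 and 4, limma adjusted p = 3.0e-06), and 2.39 ± 0.18 after rescaling (adjusted p = 1.5e-07). Itpr2 was the only member that passed between embryo and P5, at 1.21 ± 0.24 (limma adjusted p = 0.0041), where 12.3% of tested genes passed and 4.14% passed as higher. The step from E18.5 to P5 was 0.91 ± 0.21 (limma adjusted p = 0.013) as deposited, 1.01 ± 0.18 (adjusted p = 0.0061) after rescaling, and 1.04 (adjusted p = 0.042) as deposited without E18.5 replicate 1. The last 2 of these passed both thresholds. Of tested genes 5.04% passed as deposited in either direction and 2.37% as higher after rescaling. In the order of its means, from 12wk down through 4wk, P5, E18.5 and E16.5 to E14.5, only P5 with E18.5 and E16.5 with E14.5 differed between neighbours at an adjusted p below 0.1. From E14.5 to E16.5 the difference was 0.51 ± 0.19 (limma adjusted p = 0.087). From P5 to adult Itpr2 differed by 0.42 ± 0.26 as deposited (limma adjusted p = 0.19) and passed after rescaling, at 1.04 ± 0.25 (adjusted p = 0.0081), as did Stim1 at 1.11 ± 0.24. Of tested genes 6.05% passed as higher there.

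Itpr1 (mm9 chr6:108163112-108501103, plus strand) encodes the receptor best known from neurons and smooth muscle. Its FPKM was 5.69, 5.41 and 6.08 for E14.5, 4.91 and 9.64 for E16.5, 8.62 and 6.04 for E18.5, 11.5 and 10.8 for P5, 10.6 and 9.78 for 4wk, and 16.3 and 14.3 for 12wk. All postnatal samples were above all embryonic samples, by a small margin at 4wk. Adult exceeded embryo by 0.85 ± 0.18 (log2, limma adjusted p = 0.00079), short of the fold threshold, and by 1.71 ± 0.18 after rescaling (adjusted p = 2.8e-06), past it. P5 exceeded embryo by 0.70 ± 0.24 (limma adjusted p = 0.042). From E16.5 to E18.5 neither Itpr1 nor any other member passed, and none had an adjusted p below 0.1 on either scale, while 2.94% of tested genes passed as deposited. The order of the time point means was 12wk, P5, 4wk, E18.5, E16.5 and E14.5, and none of the 5 neighbouring pairs in that order differed at an adjusted p below 0.1. The summed FPKM of 7 neuronal markers was between 38.4 and 136 in embryonic samples and between 3.87 and 6.23 in adult samples, and that of myoepithelial and smooth muscle markers between 166 and 550 and between 320 and 738. The part of either in the difference of Itpr1 was not tested.

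Itpr3 (mm9 chr17:27194249-27259168, plus strand) encodes the receptor known from the apical pole of exocrine and sensory epithelia. Its FPKM was 3.31, 4.33 and 4.38 for E14.5, 4.58 and 8.86 for E16.5, 7.27 and 5.67 for E18.5, 7.21 and 6.97 for P5, 5.35 and 3.90 for 4wk, and 7.61 and 7.15 for 12wk. Adult and embryonic samples overlapped, and the difference of 0.13 ± 0.22 (log2) did not pass (limma adjusted p = 0.61). After rescaling it was 0.94 ± 0.22 (adjusted p = 0.0023), still short of the fold threshold, and the samples still overlapped. None of the 5 neighbouring pairs in the order of its time point means differed at an adjusted p below 0.1.

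Atp2a3 (mm9 chr11:72774671-72806546, plus strand) encodes SERCA3, the pump of platelets, lymphoid cells and many epithelia, and it showed the widest range of the 10 genes. Its FPKM was 14.6, 44.6 and 39.8 for E14.5, 125 and 193 for E16.5, and 214 and 191 for E18.5. Later samples had 194 and 185 for P5, 444 and 425 for 4wk, and 459 and 388 for 12wk. The levels formed 3 tiers that did not overlap, with the lowest at E14.5, the next from E16.5 to P5, and the highest at 4wk and 12wk. The step from E14.5 to E16.5 was 2.35 ± 0.37 (log2, limma adjusted p = 0.0018), and Atp2a3 was the only member that passed it, where 5.15% of tested genes did and 4.17% as higher. Without E14.5 replicate 1, the lowest sample, this step was 1.86 (adjusted p = 0.00023). The step from P5 to 4wk was 1.19 ± 0.40 (limma adjusted p = 0.025) and again no other member passed, where 2.19% of tested genes passed as higher and 24.3% in either direction. After rescaling these steps were 2.34 ± 0.37 and 1.87 ± 0.41. Adult exceeded embryo by 2.35 ± 0.61 (limma adjusted p = 0.0031), by 1.95 without E14.5 replicate 1, and by 3.29 ± 0.63 after rescaling (adjusted p = 0.00054). In the order of its means (4wk, 12wk, E18.5, P5, E16.5, E14.5), only 12wk with E18.5 and E16.5 with E14.5 differed between neighbours at an adjusted p below 0.1. The embryonic samples spread from 14.6 to 214 FPKM, and the stage comparisons with P5 did not pass. The log2 difference was 1.18 ± 0.78 from embryo to P5 (limma adjusted p = 0.26) and 1.17 ± 0.85 from P5 to adult (adjusted p = 0.27). The summed FPKM of 5 markers of platelets and megakaryocytes was between 13.6 and 94.3 in the embryo and between 8.66 and 19.1 in the adult. Immune markers summed to between 43.6 and 113 in the embryo and between 114 and 174 in the adult. The summed FPKM of 9 acinar markers was between 53.8 and 96.6 for E14.5, 2407 and 3699 for E16.5, and 37325 and 48061 for E18.5. It was 89217 and 96514 for P5, 81019 and 82652 for 4wk, and 66074 and 84352 for 12wk. These marker sums are as deposited. The rescaling factors, by which deposited values are divided, were 1.09 and 1.03 at P5 and 0.714 and 0.617 at 4wk. The acinar sum was thus lower at 4wk than at P5 as deposited and higher after rescaling. A sum follows its most abundant genes and need not give the course of each marker. The acinar marker Bhlha15 was higher at 4wk as deposited, at 187 and 131 FPKM against 76.8 and 79.5 at P5. The part of these cells in the changes of Atp2a3 was not tested.

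Atp2a2 (mm9 chr5:122903531-122952183, minus strand) encodes SERCA2, the pump found in nearly all cells and, as another splice form, in heart and slow muscle. Its FPKM was 61.5, 55.8 and 61.9 for E14.5, 42.1 and 73.9 for E16.5, 69.3 and 56.2 for E18.5, 82.6 and 76.1 for P5, 60.7 and 54.5 for 4wk, and 76.5 and 80.8 for 12wk. The adult samples overlapped the embryonic samples, and the difference was 0.18 ± 0.15 (log2, limma adjusted p = 0.30). On the rescaled values Atp2a2 passed as higher in the adult, at 1.11 ± 0.15 (adjusted p = 2.8e-05), with every adult sample above every embryonic one. The 4wk samples were lower than P5 by a log2 difference of -0.46 ± 0.21 as deposited (limma adjusted p = 0.084) but higher by 0.21 ± 0.18 after rescaling (adjusted p = 0.38). The fast-muscle pump Atp2a1 was between 2.00 and 27.1 FPKM at E14.5 and E16.5 and at most 1.75 FPKM in every other sample, and the skeletal muscle markers were likewise highest at E14.5 and E16.5.

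Stim1 (mm9 chr7:109416338-109585362, plus strand) encodes the main sensor of store depletion. Its FPKM was 11.2, 10.9 and 10.9 for E14.5, 10.3 and 16.1 for E16.5, 11.5 and 10.2 for E18.5, 16.49 and 15.2 for P5, 16.7 and 16.7 for 4wk, and 30.9 and 27.2 for 12wk. The 12wk samples were the highest on both scales. The 12wk samples exceeded the 4wk samples by 0.76 ± 0.17 (log2, limma adjusted p = 0.017), short of the fold threshold, and this was the 1 pair of neighbours out of 5 in the order of its means at an adjusted p below 0.1. After rescaling that step was 0.78 ± 0.14 (adjusted p = 0.0045). No member passed both thresholds from 4wk to 12wk as deposited, where 5.15% of tested genes did. Adult exceeded embryo by 0.89 ± 0.18 (limma adjusted p = 0.00043) and, after rescaling, by 1.78 ± 0.17 (adjusted p = 1.4e-06), which passed both thresholds. Leaving out either 4wk replicate gave 1.01 as deposited, which also passed. Without both 4wk samples, the shallowest libraries, 5 members passed from embryo to adult as deposited, Stim1 at 1.26 and Itpr1 at 1.12 among them.

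Stim2 (mm9 chr5:54389762-54512296, plus strand) encodes a sensor that responds to smaller losses of stored calcium. Its FPKM was 6.55, 8.25 and 8.29 for E14.5, 9.70 and 17.3 for E16.5, 13.01 and 11.6 for E18.5, 11.4 and 11.1 for P5, 5.32 and 6.88 for 4wk, and 5.39 and 4.95 for 12wk. As deposited, Stim2 stood highest from E16.5 to P5, where every sample was above every E14.5 and adult sample. E16.5 exceeded E14.5 by 0.69 ± 0.21 (log2, limma adjusted p = 0.039), and 4wk was lower than P5 by a log2 difference of -0.79 ± 0.23 (limma adjusted p = 0.011). Neither step reached the fold threshold, and after rescaling the first was 0.68 ± 0.20 (adjusted p = 0.041) and the second -0.20 ± 0.22 (adjusted p = 0.50). Without E16.5 replicate 1 the first was 1.08 as deposited and passed. In the order of its means (E16.5, E18.5, P5, E14.5, 4wk, 12wk), only P5 with E14.5 differed between neighbours at an adjusted p below 0.1. From embryo to adult the difference was -0.77 ± 0.21 as deposited (limma adjusted p = 0.0039), about the median of all tested genes, and 0.069 ± 0.21 after rescaling (adjusted p = 0.79), so that the sign depended on the scale.

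Orai2 (mm9 chr5:136623334-136646526, minus strand) encodes an ORAI channel that is known to dampen the current of Orai1 in several cell types. Its FPKM was 4.30, 3.77 and 3.68 for E14.5, 4.66 and 4.65 for E16.5, 4.06 and 3.98 for E18.5, 3.69 and 3.53 for P5, 2.46 and 1.27 for 4wk, and 0.679 and 0.631 for 12wk. The 9 samples up to P5 lay between 3.53 and 4.66, and all adult samples lay below them. The adult values rest on few reads, 39 to 69 per sample, against 271 to 686 in the earlier samples. Orai2 fell by 1.26 ± 0.18 (log2, limma adjusted p = 2.9e-05) from embryo to adult and by 1.098 ± 0.25 (adjusted p = 0.0040) from P5 to adult. Adding 1 to each FPKM shrinks the change of so low a gene, and voom (limma) on the reads recovered from the FPKM gave -2.24 and -2.03. From P5 to adult no other member passed, while 23.1% of tested genes passed and 20.8% passed as lower. Without 12wk replicate 1 or 2 the value from P5 to adult was -0.98 or -0.96, short of the fold threshold. After rescaling, embryo to adult gave -0.65 ± 0.19 (adjusted p = 0.010) with overlapping samples, since 4wk replicate 1 reached 3.44 rescaled FPKM. The step from 4wk to 12wk was -0.76 ± 0.19 as deposited (limma adjusted p = 0.025) and -0.89 ± 0.17 after rescaling (adjusted p = 0.0061), with both 12wk samples below both 4wk samples on either scale. The step from P5 to 4wk was -0.72 ± 0.19 (limma adjusted p = 0.0075) as deposited and -0.26 ± 0.17 (adjusted p = 0.25) after rescaling. It passed without 4wk replicate 1, at -1.02, as did the step from 4wk to 12wk without 4wk replicate 2, at -1.06. The neighbours from E16.5 over E18.5 and E14.5 to P5 did not differ at an adjusted p below 0.1.

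Orai1 (mm9 chr5:123465083-123480459, plus strand) encodes the pore of the classical store-operated channel. Its FPKM was 6.15, 6.85 and 5.38 for E14.5, 7.27 and 11.04 for E16.5, 4.84 and 7.97 for E18.5, 7.05 and 6.62 for P5, 6.06 and 5.37 for 4wk, and 8.499 and 6.92 for 12wk. As deposited the stages overlapped, and adult differed from embryo by -0.045 ± 0.18 (log2, limma adjusted p = 0.83). After rescaling the sign turned, and adult exceeded embryo by 0.79 ± 0.17 (adjusted p = 0.0016), short of the fold threshold, with every adult sample above every embryonic one.

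Orai3 (mm9 chr7:134913329-134918664, plus strand), an ORAI gene found in mammals and not in other vertebrates, had the highest FPKM of the ORAI genes in each of the 13 samples. Its FPKM was 13.6, 14.03 and 12.7 for E14.5, 16.03 and 14.54 for E16.5, 14.99 and 14.47 for E18.5, 14.8 and 14.2 for P5, 13.5 and 8.94 for 4wk, and 9.94 and 8.58 for 12wk. The adult samples overlapped the embryonic ones through 4wk replicate 1. Adult was lower than embryo by a log2 difference of -0.46 ± 0.12 as deposited (limma adjusted p = 0.0035) but higher by 0.41 ± 0.12 after rescaling (adjusted p = 0.0072), so that the sign depended on the scale. None of the 5 neighbouring pairs in the order of the means differed at an adjusted p below 0.1, for Orai1 or for Orai3.

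**Figure D2:**
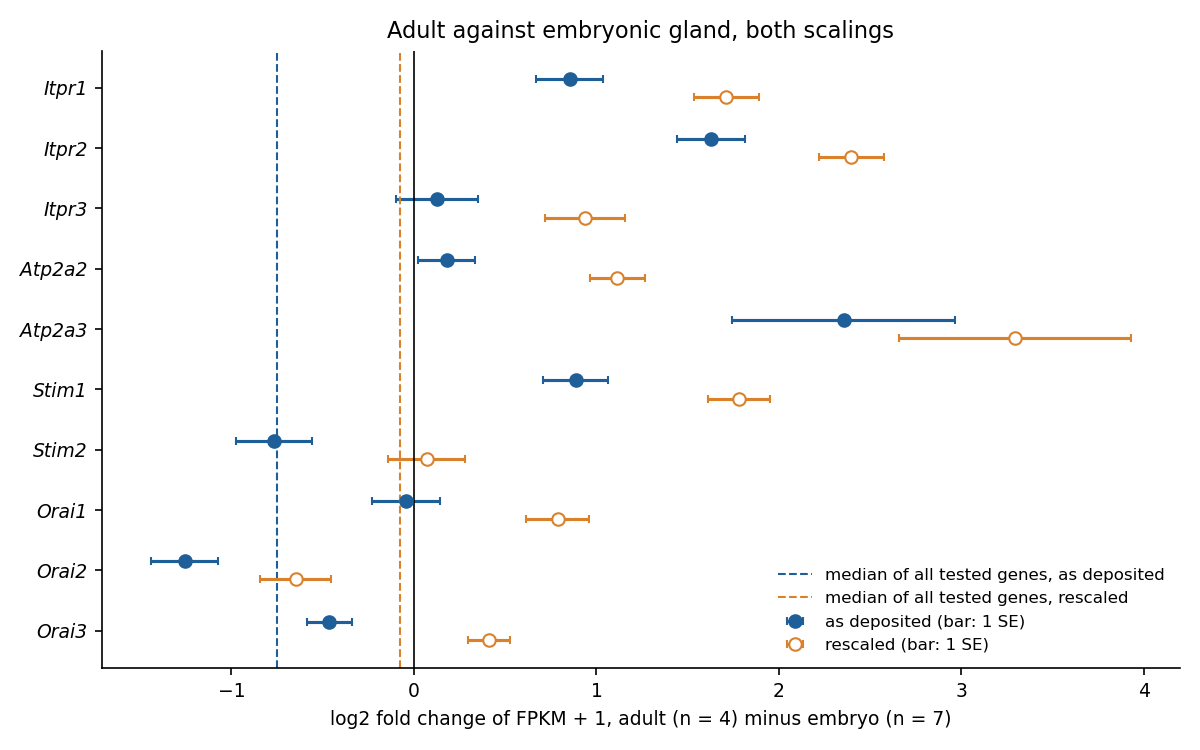
Log2 fold change of FPKM + 1 from the 7 embryonic to the 4 adult samples (x axis) for the 10 genes (y axis), filled as deposited and open after rescaling, with bars of 1 SE of the limma fit and dashed lines at the median of all tested genes (-0.75 as deposited and -0.076 rescaled). Orai2 is the 1 gene below 0 on both scales, and Stim2, Orai1 and Orai3 change sign between them.

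The share of each gene in the summed FPKM of its family is the same under any single scaling factor per sample, though not under factors that differ with gene length, and it is given here from the deposited values as a description. In the IP3 receptors Itpr2 held 14.9% ± 1.91 (SD, n = 7) in embryonic, 25.1% ± 1.12 (n = 2) in P5 and 31.9% ± 4.81 (n = 4) in adult glands. Itpr3 moved the other way, from 38.1% ± 3.23 over 29.1% ± 0.79 to 21.7% ± 2.85, and Itpr1 stayed between 42.7% and 54.3% in all 13 samples. The embryonic, P5 and adult ranges of Itpr2 did not overlap, at 12.2% to 17.3%, 24.3% to 25.9% and 27.9% to 38.3%, and those of Itpr3 did not overlap either.

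In the SERCA pumps Atp2a3 held 19.2% to 44.4% of the family at E14.5 and 82.8% to 88.6% in the adult. Atp2a2 was the more abundant pump in each E14.5 sample and Atp2a3 in each of the later 10. Stim1 and Stim2 were about level in the embryo, at 52.9% ± 6.19 and 47.1% ± 6.19 (SD, n = 7). In the adult Stim1 held 79.1% ± 6.95 (SD, n = 4), with 84.6% and 85.1% at 12wk. Orai2 held 16.3% ± 1.08 of the family in embryonic, 14.497% ± 0.041 in P5 and 6.69% ± 3.64 in adult glands, while adult Orai1 held 37.3% ± 7.88 and adult Orai3 56.0% ± 4.25. Orai3 had 56.4% ± 4.41 in the embryo, so its share of the family was much the same at both ends.

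**Figure D3:**
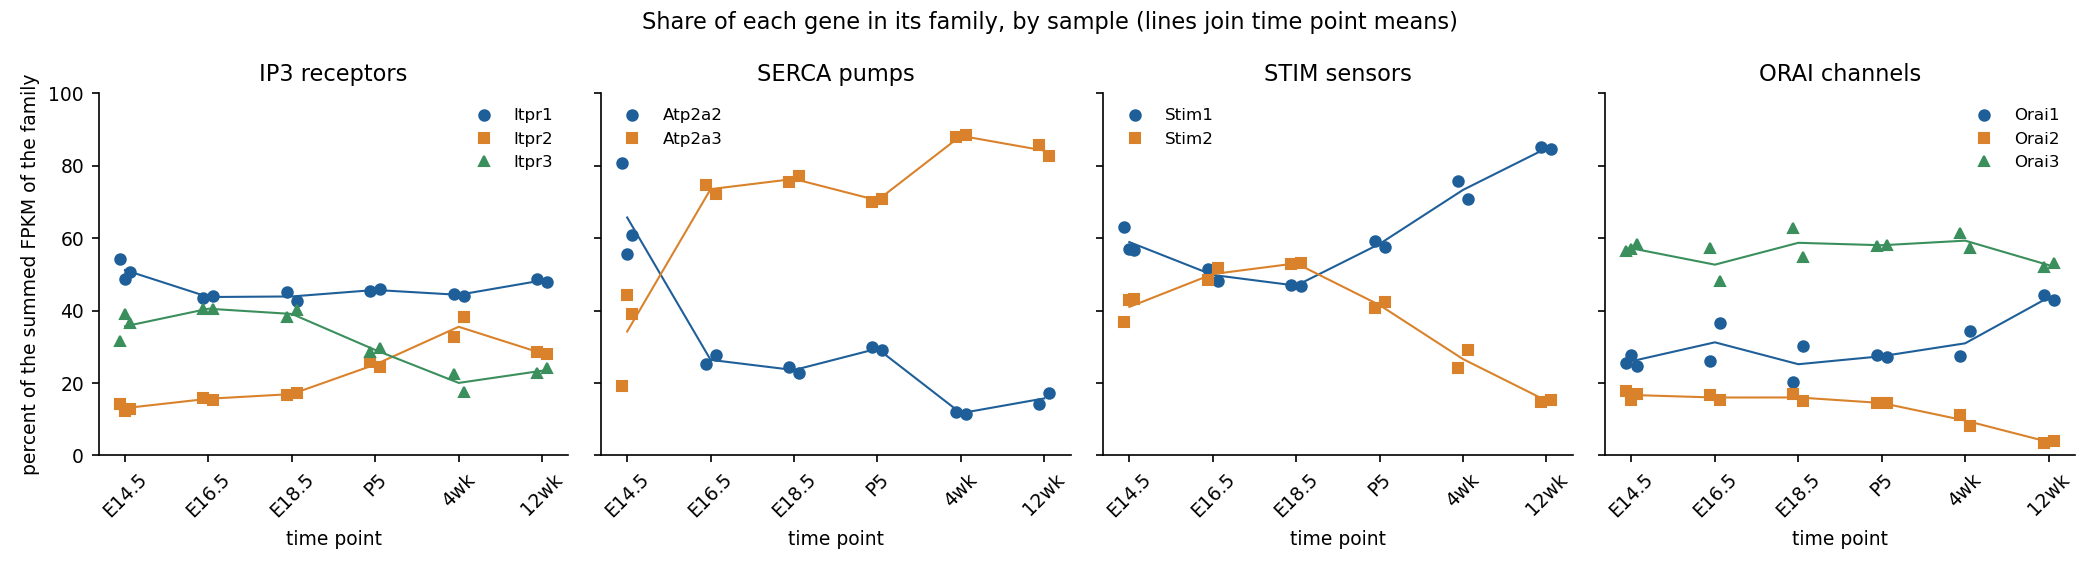
Share of each gene in the summed FPKM of its family (y axis, percent) at the 6 time points (x axis), 1 panel a family, with points for single samples and lines joining time point means. Atp2a3 overtakes Atp2a2 between E14.5 and E16.5, Itpr2 overtakes Itpr3 between P5 and 4wk, and Stim1 and Stim2 draw apart in the adult.

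The 3 IP3 receptors summed to between 10.5 and 21.9 FPKM in the embryo and between 22.2 and 33.4 in the adult. The 3 ORAI genes summed to between 21.8 and 30.2 FPKM in the embryo and between 15.6 and 22.0 in the adult as deposited, but to between 16.7 and 23.0 and between 25.2 and 30.9 after rescaling, so that the stage with the higher mean depended on the scale.

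For members whose time point means spanned at least 1 (log2, rescaled), the genes with the most similar course over the 13 samples were ranked among 7112 tested genes of the same minimum span and a mean of at least 1 FPKM. For Atp2a3 these were Cmtm6 (Pearson r = 0.989 on rescaled values), Bhlha15 (r = 0.989) and Kcnn4 (r = 0.988). Bhlha15 encodes MIST1, a transcription factor of secretory cells, and had 0.609 to 77.7 FPKM before birth, 76.8 and 79.5 in the P5 pair and 131 to 187 in adult glands. Bhlha15 is also one of the 9 acinar markers. In the rankings of the other members it stood at 264 for Itpr3, 1340 for Orai1, 1545 for Itpr2, 1666 for Itpr1, 1906 for Atp2a2, 1965 for Stim1 and 4822 for Orai2. Kcnn4 encodes a calcium-activated potassium channel and ran from between 8.53 and 119 in the embryo to between 139 and 167 FPKM in the adult. As deposited, Cmtm6 was between 15.7 and 26.5 FPKM in the embryo and between 18.6 and 20.8 in the adult, so that it was higher in the adult on the rescaled values only. For Itpr2 the first was Scnn1b (r = 0.993), a subunit of the epithelial sodium channel of ducts, followed by Fam189a2 and Mavs. For Orai2 the first was Rtn4 (r = 0.971), an ER-shaping protein, which was between 36.3 and 50.7 FPKM in the embryo and between 7.73 and 18.8 in the adult, followed by Zfp367 and Syt9. Stim1 was followed by Tmem116, AA986860 and Myo19, Itpr1 by Tep1, Ikzf2 and Farp2, and Itpr3 by Wnk2, Plekhg3 and Clstn1. Orai1 was followed by B3gat3, Sirt7 and Wbp2, and Atp2a2 by Rab3gap2, Usp33 and the member Itpr1. Stim2 spanned 0.76 and Orai3 0.65, under the minimum. Among the members themselves, r on the same scale was 0.98 between Itpr1 and each of Itpr2, Stim1 and Atp2a2, and -0.83 between Stim1 and Orai2. All of these points share their 13 libraries, a common trend with age and the rescaling, and they are a description.

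Other genes of the calcium pathway were counted from 9 lists in the comparison of embryo with adult. In these counts a gene rose or fell only if it passed both thresholds, so that a gene short of the fold threshold counts as neither. In each the background was again 5.58% of tested genes higher and 38.0% lower as deposited, and 13.8% and 14.7% after rescaling. In the list of Gq proteins and phospholipase C enzymes, which make IP3, 1 of 12 tested genes rose and 5 fell as deposited, and 2 rose and 0 fell after rescaling. The riser on both scales was Plcb4, the phospholipase C beta form also known from neurons, at 20.2 to 50.1 FPKM in the embryo and 95.5 to 169 in the adult (log2 fold change 1.99 ± 0.25, limma adjusted p = 7.3e-06). Plcg2 passed after rescaling only. Plcg1, Plcb3, Plce1, Plcd1 and Plcb1 passed as lower as deposited only, Plcg1 with the largest fall, of 1.83 ± 0.18 on the log2 scale. After rescaling Plcg1, Plcb3 and Plce1 were still lower, at -0.99, -0.61 and -0.76. Each had an adjusted p below 0.1 but was short of the fold threshold. In the list of IP3 and diacylglycerol metabolism 3 of 15 rose and 4 fell as deposited, against 4 and 0 after rescaling. Dgka, which turns diacylglycerol into phosphatidic acid, and Cds1, which carries it on towards phosphatidylinositol, rose by 1.17 ± 0.18 and 1.06 ± 0.34 on the log2 scale, as did Pip5k1b, and Itpkb, an IP3 kinase, passed after rescaling only. Pip5k1c, Impa2, Inpp1 and Pip5k1a passed as lower as deposited only. After rescaling Pip5k1c and Inpp1 were at -0.49 and -0.47, with an adjusted p below 0.1, and Pip5k1a was at -0.26, without.

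Of the IP3 receptor partners 1 of 15 tested genes rose and 6 fell as deposited, and 4 rose and 4 fell after rescaling. Bok, a protein of the BCL2 family that binds IP3 receptors, fell by 2.78 ± 0.26 on the log2 scale, from between 8.86 and 20.3 to between 0.480 and 2.14 FPKM. Pkd2, a calcium-permeable channel of cilia and ER, fell by 2.28 ± 0.26, and both also fell after rescaling, together with Itprip and Bcl2. Itpripl2 fell by 1.73 ± 0.14 and Itpripl1 by 1.18 ± 0.19 as deposited, and both passed on that scale only. After rescaling Itpripl2 was at -0.93, with an adjusted p below 0.1 but short of the fold threshold. Grina, an ER membrane protein, rose by 1.28 ± 0.21, and after rescaling Ahcyl2, Erp44 and Tmbim6 passed as higher too. Of the partners of store-operated entry 2 of 13 rose and 5 fell as deposited, and 3 rose and 1 fell after rescaling. Efcab4b, which encodes the STIM and ORAI binding protein CRACR2A, showed one of the widest changes, from between 0.332 and 3.37 FPKM in the embryo to between 41.3 and 126 in the adult (log2 fold change 4.97 ± 0.38). Tmem66 encodes SARAF, which turns store-operated entry down, and rose by 1.13 ± 0.19, from between 45.2 and 90.6 to between 127 and 143 FPKM. Homer3, a scaffold protein, fell by 2.25 ± 0.22 and passed on both scales. Cav1, the caveolae protein, and Jph4, a junctophilin, fell by 1.92 ± 0.26 and 1.18 ± 0.20 as deposited. After rescaling Cav1 and Jph4 were at -0.99 and -0.88, with an adjusted p below 0.1 but short of the fold threshold. Esyt1 passed as lower as deposited only, and Efcab4a passed as higher after rescaling only. Of 5 endothelial and 6 mesenchymal markers 5 each fell as deposited, and 2 and 5 after rescaling, and the part of these cells in the fall of Cav1 was not tested.

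Among regulators of SERCA pumps, 1 of 5 tested genes rose and 2 fell as deposited, and 1 rose and 1 fell after rescaling. S100a1, a calcium-binding protein known to raise SERCA activity in muscle, rose from between 4.98 and 73.3 to between 589 and 1282 FPKM (log2 fold change 5.07 ± 0.55). Sln, a SERCA inhibitor of muscle, was between 0.998 and 111 FPKM in the embryo and listed at 0 in all 4 adult samples, while all 9 skeletal muscle markers fell. The regulator listed as 1810037I17Rik fell by 1.30 ± 0.25 as deposited and did not pass after rescaling, at -0.37 (limma adjusted p = 0.24). Of 18 calcium-binding and folding proteins of the ER, 1 rose and 7 fell as deposited, and 2 rose and 4 fell after rescaling. Nucb2, a calcium-binding protein of the secretory pathway, rose by 3.04 ± 0.70, from between 13.1 and 237 to between 278 and 522 FPKM. The reticulocalbins Rcn3, which fell by 3.62 ± 0.18, and Rcn2, which fell by 3.05 ± 0.34, passed on both scales, as did Hrc and the calsequestrin Casq1, both known from muscle. Calu, Rcn1 and Casq2 passed as lower as deposited only, Calu with a fall of 1.83 ± 0.12. After rescaling Calu was at -0.89, with an adjusted p below 0.1 but short of the fold threshold. The chaperone Hspa5 passed as higher after rescaling only.

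Of other calcium pumps and exchangers 0 of 9 rose and 5 fell as deposited, against 0 and 2 after rescaling. The plasma membrane pump Atp2b4 fell by 1.86 ± 0.27 and the Golgi pump Atp2c2 by 1.47 ± 0.40, and both passed on both scales. The plasma membrane pump Atp2b1, with a fall of 1.32 ± 0.14, the fast-muscle pump Atp2a1 and the exchanger Slc8a2 passed as lower as deposited only. After rescaling Atp2b1 was at -0.44, with an adjusted p below 0.1 but short of the fold threshold. Of other calcium release channels 0 of 6 tested genes passed as deposited and 1, Mcoln1, passed as higher after rescaling. Of 10 genes of mitochondrial calcium uptake 0 rose and 1 fell as deposited, and 2 (Ccdc90a and Letm1) rose and 0 fell after rescaling. The gene that fell was Mcu, the pore of the uniporter, at 1.53 ± 0.17, and it did not reach the fold threshold after rescaling.

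**Figure D4:**
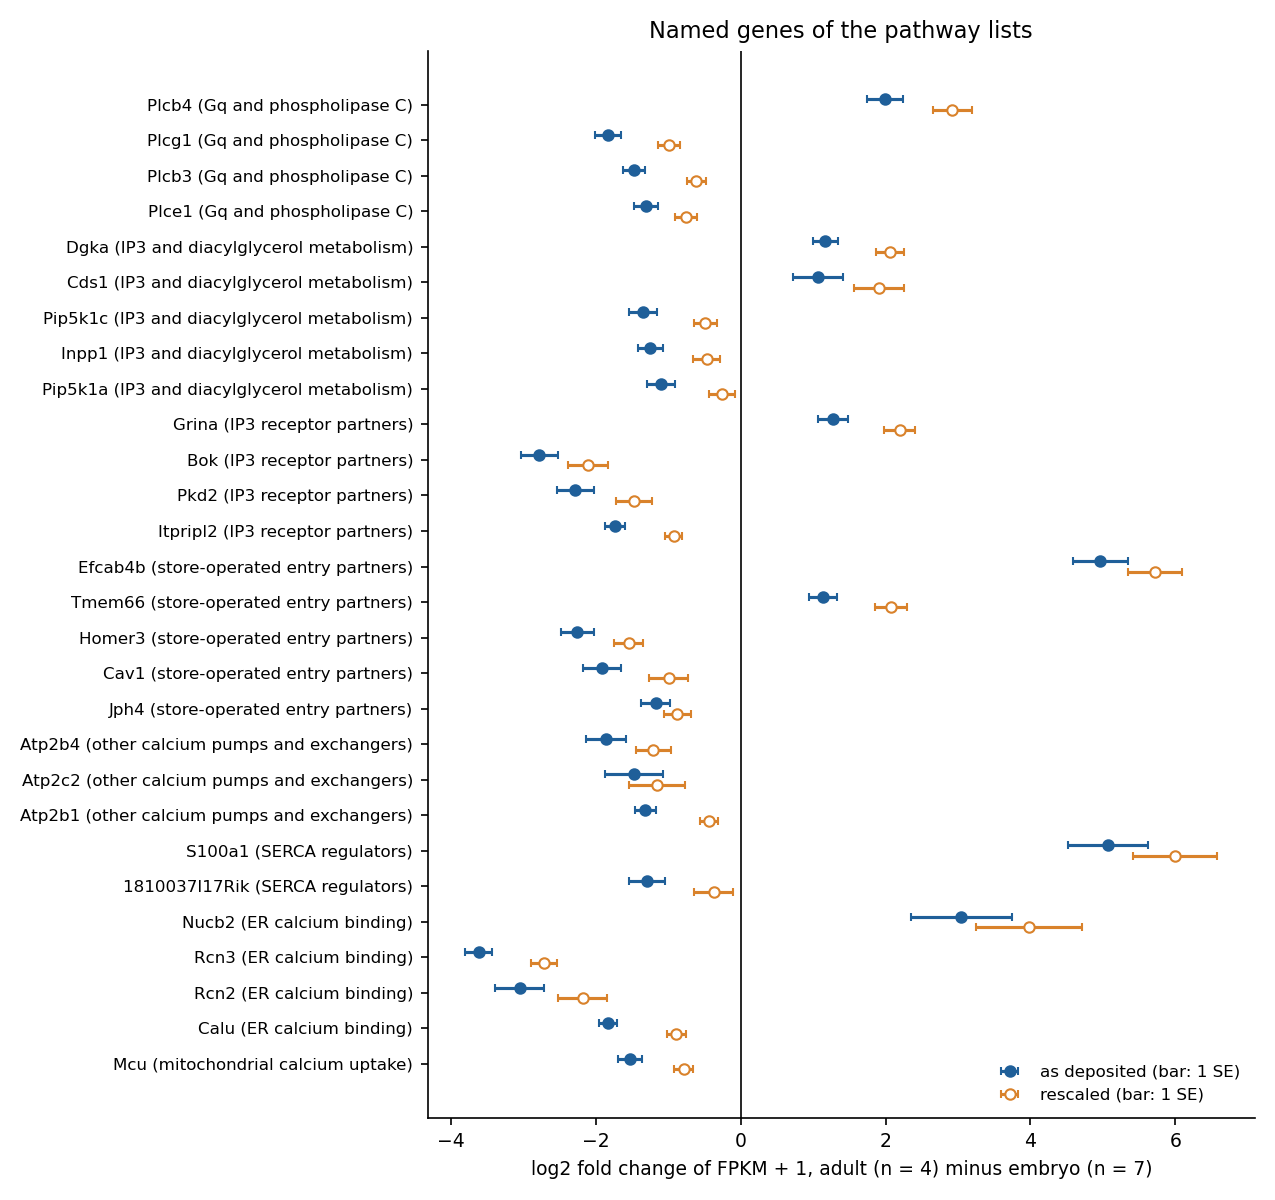
Log2 fold change of FPKM + 1 from embryo to adult (x axis, bars 1 SE of the limma fit) for 28 named genes of the pathway lists (y axis), filled as deposited and open after rescaling. S100a1, Efcab4b and Nucb2 lie farthest to the right and Rcn3 and Rcn2 farthest to the left on both scales, and Sln, listed at 0 in the adult, is left out.

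Marker genes place these changes against the cells of the gland. Acinar markers summed to 53.8 to 48061 FPKM before birth, to 89217 and 96514 in the P5 pair and to 66074 to 84352 in adult glands. Of the 9 markers, 4 were at 1 FPKM or more in every E14.5 sample, all 9 from E16.5 to 4wk, and 7 at 12wk. These sums and those below are as deposited. Divided by the rescaling factors (1.09 and 1.03 at P5, 0.617 to 0.714 in the adult), the adult acinar sums lie above those of P5. Duct markers were between 106 and 969 in the embryo and between 3642 and 16750 in the adult, and granular duct markers between 7.99 and 31.5 and between 16413 and 64516. Myoepithelial and smooth muscle markers were between 166 and 550 in the embryo and between 320 and 738 in the adult, and immune markers between 43.6 and 113 and between 114 and 174. Mesenchymal markers summed to between 1511 and 2181 in the embryo and between 247 and 468 in the adult, endothelial markers to between 101 and 127 and between 24.1 and 42.4, and erythroid markers to between 66.7 and 172 and between 2.91 and 4.26. The globin gene Hba-a1 on the erythroid list was at 0 in every sample, and Hbb-b1 was at 0 at P5 and 4wk, so that this sum rests on the other erythroid genes. From embryo to adult the duct, granular duct and immune sums were higher without overlap, as was the acinar sum, while the mesenchymal, endothelial and erythroid sums were lower without overlap, and the muscle sum overlapped. Their part in the members' changes was not tested.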

How the data were processed

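Per the labels and the study's methods, total RNA of dissected C57BL/6 submandibular glands was made into TruSeq libraries, read as 50 bp single ends, mapped to mm9 by TopHat2 2.0.13 with Bowtie2 2.2.6, and counted over UCSC genes with featureCounts. The authors deposited 1 table of FPKM per sample. Reads at more than 1 location or gene were left out. The methods name a median normalization between samples, which the values do not show, since they keep the scale of the library total. Whole reads could be recovered from their steps for 23360 of 23364 genes (tolerance 0.001). The authors tested counts with DESeq2. Since FPKM are not counts, limma 3.58.1 in R 4.3.3 was used here on log2(FPKM + 1), which understates the change of low genes, over the 14650 genes with 1 FPKM or more in at least 1 sample. One fit compared the 3 stages and another the 6 time points. A gene passed when its log2 fold change reached 1 in either direction with a Benjamini-Hochberg adjusted p below 0.1, both taken from the study. Code was tested on simulated data. The members, lists and tests were chosen with earlier results of these data known.

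All 10 members are named. Of each pathway list up to 3 genes per direction are named that passed from embryo to adult with the largest change and without overlap of samples, plus the genes behind any count of 5 or fewer. Rescaled FPKM were divided by median-of-ratios factors over the 13039 genes above 0 in all samples. Gene positions are from a GENCODE annotation of mm9, and gene lengths are those behind the FPKM. Reads on genes ranged from 5817300 to 48314200, so that a read on a transcript of 1 kb was worth between 0.0207 and 0.172 FPKM. Alternatives were another pseudocount, 2 other filters, a stricter adjusted p of 0.05, rescaling, the replicate number as a block, stage contrasts from time point means, and leaving out each sample. Same-numbered samples did not, on average, deviate together from their time point means (mean r of -0.016 over 30 pairs, from -0.35 to 0.27). The main fits therefore did not pair samples by number. The mean r of 0.012 over 40 pairs of different numbers is no separate check. It mirrors the first value, since 2 samples of a group deviate from their mean in opposite directions. One gene of the pathway lists is counted but not reported here by name.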

Additional observations from a re-analysis of the deposited data

Results flagged for a closer look

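Among the 20 groups of samples of a member that were checked, 1 held a sample far from the others, and chance alone gives about 1 in 20. Stim1 was 16.1 FPKM in E16.5 replicate 2, the highest of the 7 embryonic samples, and its gap to the next sample was 0.738 of the range of the group. That library also had higher values than E16.5 replicate 1 over long genes, by a median log2 ratio of 0.48 over 2259 genes of 5000 bases or more, and the part of this trend in the value was not tested.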

How the results depend on the processing

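Of 80 member fold changes (10 genes, 8 comparisons), all kept their direction and their side of the thresholds with a stricter adjusted p and with both other filters. Rescaling changed most, turning the sign of 20 of the 80 by median-of-ratios, and 19 each by rescaling within bins of gene length and by rescaling without E14.5 replicate 1. The values given here are for 51 of the 80, all those between stages and those between time points with an adjusted p below 0.1 as deposited or after rescaling. Among these, by median-of-ratios rescaling, the signs turned from embryo to adult for Stim2 (0.069), Orai1 (0.79) and Orai3 (0.41), from embryo to P5 for Orai1 (0.22) and Orai2 (0.051), from P5 to adult for Itpr3 (0.35), Orai1 (0.57), Orai3 (0.15) and Atp2a2 (0.44), and from P5 to 4wk for Itpr1 (0.51), Itpr3 (0.037), Orai3 (0.26) and Atp2a2 (0.21). The alternatives in the rest of this paragraph and the next were chosen after seeing the data. Rescaling within bins of gene length gave, in the same order, 0.18, 0.72 and 0.34, then 0.19 and 0.063, then 0.47, 0.53, 0.11 and 0.53, then 0.68, 0.19, 0.19 and 0.34. Rescaling without E14.5 replicate 1 left Stim2 at -0.034 and gave 0.75 for Orai1 and 0.39 for Orai3, then 0.19 and 0.048, then 0.35, 0.57, 0.15 and 0.44, then 0.51, 0.037, 0.26 and 0.21.

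Orai1 turned without both E16.5 samples (0.092 from embryo to adult, 0.13 to P5) and without both 4wk samples (0.14 from embryo, 0.15 from P5), where Itpr3 also turned from P5 to adult (0.051), and by voom on recovered reads Orai1 was 0.029 from P5 to adult. Members that passed from embryo to adult numbered 3 as deposited, 5 after rescaling, 6 within length bins (Itpr3 at 1.07), 5 without both 4wk samples and 5 after rescaling without E14.5 replicate 1. From P5 to adult 1 passed as deposited, 2 after rescaling, 2 from time point means (Atp2a3 added), 2 within length bins, 2 by voom (Stim2 added) and 3 after rescaling without E14.5 replicate 1. Over successive time points 2 passed, and 4 with a pseudocount of 0.1 and 5 by voom, which added steps of Itpr2 and Orai2. The cause was not tested.

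With each sample left out in turn, up to 7 of the 80 signs turned (without E16.5 replicate 1), and among the 51 Orai1 ranged from -0.15 to 0.057 (embryo to adult), -0.079 to 0.095 (embryo to P5) and -0.14 to 0.049 (P5 to adult), Orai3 from -0.013 to 0.043 (embryo to P5), and Orai2 from -1.33 to -0.96 (P5 to adult), where 0 to 1 members passed. With the replicate number as a block, 79 of 80 fold changes kept direction and side, and Orai3 was -0.011 from embryo to P5. Family shares stayed within 1 SD in all 130 cases. Leaving 1 sample out cannot move a group mean by more than that, so this is no check of the shares.

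Genes that passed from embryo to adult numbered 6385, and 4166 after rescaling, 4164 within length bins and 4003 after rescaling without E14.5 replicate 1. From embryo to P5 there were 1798, and 2856 by voom and between 870 and 2187 with a sample left out. From P5 to adult there were 3385, and 5320 with a pseudocount of 0.1, 5655 by voom, 2136 after rescaling, 2144 within length bins and 2167 after rescaling without E14.5 replicate 1. Depth limits Orai2 most, with 39 to 69 reads per adult sample.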
